A study of Rattus norvegicus with 29 samples.

Results

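The region examined was a stretch of rat chromosome 1 around Tiam2, rn6 chr1:44168000-44670000, which reaches 250 kb to each side of the open chromatin region (OCR) that the study names at this gene, chr1:44418133-44419600. Its members were the rows of the deposited count table that overlap these bounds, 33 OCRs of 98237, numbered here OCR 1 to OCR 33 along the chromosome, and the OCR named at Tiam2 is OCR 26. The question was how these 33 sites differed between brain regions and between rats given methamphetamine (METH) and rats given saline.

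Tiam2 encodes a guanine nucleotide exchange factor that switches on the small GTPase Rac, a regulator of the actin cytoskeleton, and it is known for roles in the outgrowth of neurites and in the migration of young neurons. ATAC-seq reads the accessibility of DNA: a transposase cuts where nucleosomes are loose, so promoters, enhancers and other regulatory sites gather reads, and many enhancers are open in one cell type and closed in another. The nucleus accumbens (NAc) holds mostly inhibitory medium spiny neurons, in the hippocampus the dentate gyrus (DG) and the cornu Ammonis (CA) hold mostly excitatory granule and pyramidal neurons, and the subventricular zone (SVZ), a layer of neural stem cells and glia along the lateral ventricle, lies against the striatum.

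The tissue came from adult male Sprague-Dawley rats with no genetic modification, and 29 libraries were made from 8 animals. METH rats received 4 intraperitoneal injections of 10 mg/kg at intervals of 2 h, control rats received saline at 1 mL/kg on the same schedule, and both were killed the day after the last injection. NAc, DG and CA had 4 saline and 4 METH libraries each, and SVZ had 3 saline and 2 METH libraries. NAc and SVZ were taken as tissue punches and DG and CA were scooped out, each from 1 hemisphere, so every library is a mixture of cell types, and a site open in fewer cells cannot be told apart from a site less open in each cell.

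Libraries had 7.55 M to 19.4 M counts in the OCRs, and OCR 26 itself held 72 to 511 counts. Levels are given as CPM (counts per M counts of a library) after upper-quartile normalization. The exception is the NAc-high and hippocampus-high OCRs outside the window, whose lists and means use CPM of total counts without that step. The labels of the tissues could not be set against marker genes, since gene positions in rn6 were not analysed here, so they were set against accessibility outside the window. For this, 4827 OCRs with a mean CPM at least 4 times higher in NAc saline than in DG and CA saline, and 2254 OCRs with the opposite pattern, each with a mean of at least 3 CPM where high, were averaged in every library. METH replicate 3 of NAc had 1.61 CPM over the NAc-high OCRs, against 4.09 to 9.13 in the other 7 NAc libraries. METH replicate 1 of DG (1.12 CPM), METH replicate 4 of DG (1.45 CPM) and saline replicate 2 of CA (1.44 CPM) were as far below the 3.04 to 8.85 CPM of the other 13 hippocampal libraries over the hippocampus-high OCRs. These 4 libraries thus carried little of the accessibility typical of their labelled region, and METH changes of the OCRs described at length are given with and without them. The lists were drawn with the saline libraries, so the value of saline replicate 2 of CA is not independent of its list.

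The window held 65.7 OCRs per Mb, against 37.0 on the whole of chromosome 1, and the 33 OCRs covered 22450 bp, or 4.47% of it. Their median width was 613 bp, against 662 bp over all OCRs. OCR 26 was the widest with 1468 bp, wider than 97.0% of all OCRs, and OCR 25, its left neighbour at chr1:44416084-44416359, was the narrowest with 276 bp. The study places OCR 26 over an exon of Tiam2. In the GRCr8 gene table of RefSeq, a later assembly, the protein-coding neighbours of Tiam2 in order are Cnksr3 and Scaf8 before it and Tfb1m, Cldn20 and Nox3 after it, and which of them the remaining 32 OCRs fall in was not analysed here.

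Per kb of its width, OCR 30 (chr1:44474091-44475207) was the most accessible site of the window, with 84.8 CPM per kb as the mean of the 29 libraries, higher than 99.1% of all OCRs. OCR 27 (chr1:44424960-44425678), the right neighbour of the Tiam2 OCR, followed with 15.2 CPM per kb and OCR 26 had 10.6 CPM per kb, above 71.7% of all OCRs. The lowest was OCR 29 with 2.86 CPM per kb. OCR 30 lay 55.8 kb from the centre of the Tiam2 OCR and had a similar level in every region, with saline means of 90.5 ± 12.8 CPM for NAc, 95.1 ± 19.1 for DG and 94.4 ± 23.6 for CA (SD, n = 4 each) and 87.1 ± 10.3 CPM for SVZ (SD, n = 3). The log2 difference of OCR 30 from the mean of the other regions was between -0.10 and 0.07 in the 4 regions, with a standard error of at most 0.18.

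**Figure D1:**
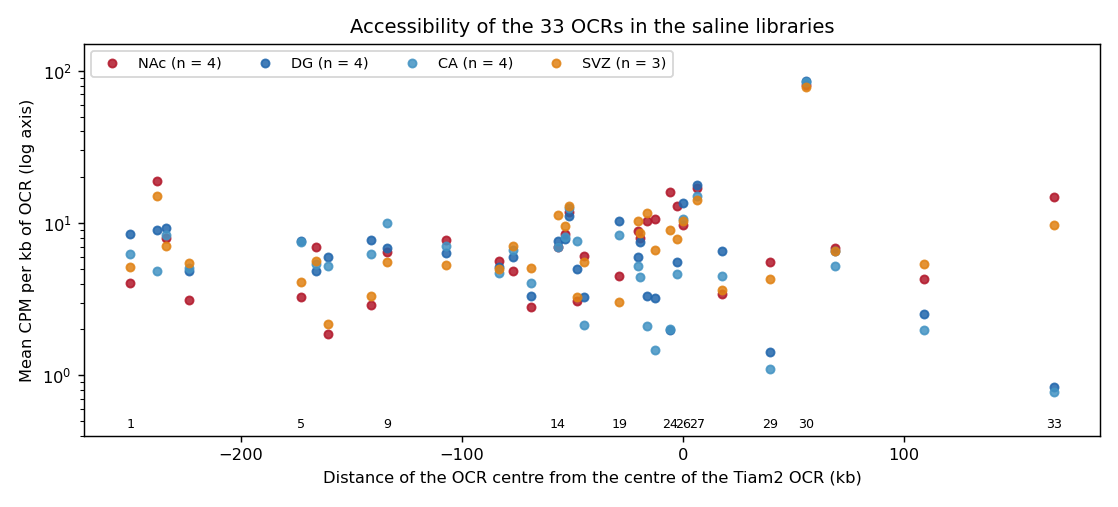
Mean CPM per kb of OCR width in the saline libraries (log axis) against the distance of each OCR's centre from that of the Tiam2 OCR in kb, with 1 point per region and selected OCR numbers along the bottom. OCR 30 stands near 80 to 90 CPM per kb in all 4 regions, whereas at OCR 24, OCR 29 and OCR 33 the NAc and SVZ points lie above the DG and CA points.

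The peaks that the authors called in each library gave the same outline from a different file. OCR 26, OCR 27 and OCR 30 carried a peak in 29 of 29 libraries, and OCR 3 and OCR 16 in 28. A further 6 OCRs (18, 22, 23, 24, 29 and 33) carried a peak in 4 to 10 of the 13 NAc and SVZ libraries and in 0 of the 16 hippocampal libraries. The opposite pattern, peaks in hippocampus alone, was seen at OCR 1 (7 libraries) and OCR 17 (3 libraries). How many of all OCRs show either pattern is not given here, so these counts are not read as particular to the window. The fold enrichment of the peaks over local background ran from 15.5 to 24.7 at OCR 30 and from 3.71 to 9.34 at OCR 26. Counts of libraries depend on depth, and the reads behind a peak and behind a count are the same, so the peaks are no independent test of the counts.

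**Figure D2:**
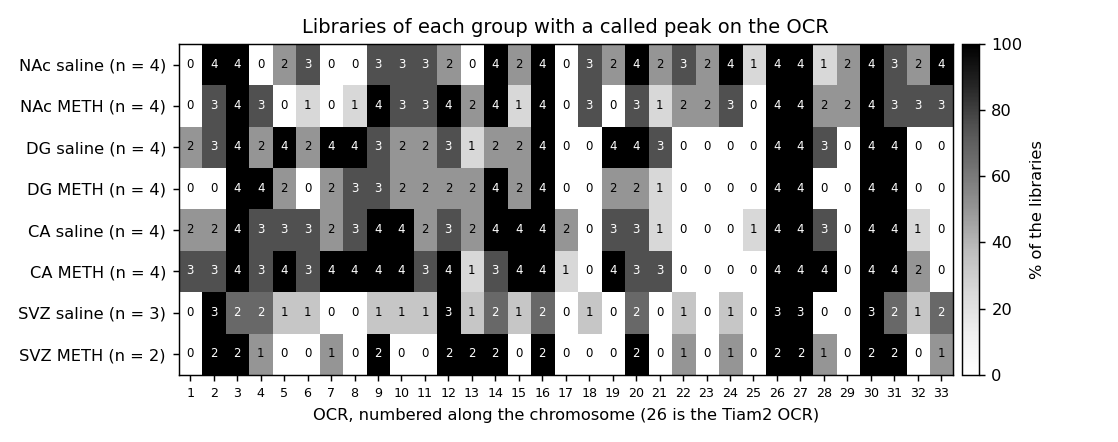
Number of libraries in each group (rows) with a called peak on each of the 33 OCRs (columns), shaded by the percentage of the group's libraries. The columns of OCR 26, OCR 27 and OCR 30 are full in all 8 groups, and those of OCR 22, OCR 23, OCR 24, OCR 29 and OCR 33 are empty in the 4 hippocampal groups.

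Within OCR 26 the top summit of the peak lay 805 to 1101 bp from the left edge of the OCR in the 29 libraries, with a median of 1046 bp. The left part of the OCR was covered by a peak less often: a peak began within 200 bp of the left edge in 3 of 8 DG libraries, 6 of 8 CA libraries and 0 of 13 NAc and SVZ libraries, and in NAc the peak began 535 to 686 bp from that edge. This was noticed after the peaks were seen, CA had the deepest libraries, and the difference was not tested.

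The Tiam2 OCR was open at a similar level in the 4 regions of saline rats. In NAc the 4 saline libraries had 15.2, 13.6, 12.7 and 15.5 CPM. In DG they had 19.2, 19.5, 18.2 and 22.9 CPM, all above the 4 of NAc. In CA they had 13.2, 4.73, 21.1 and 23.5 CPM, a spread that enclosed every other saline library, with the lowest value in replicate 2, which was short of hippocampal accessibility overall. In SVZ the 3 saline libraries had 16.1, 12.6 and 16.8 CPM, within the range of CA. By mean level the order was DG (19.9 ± 2.02, SD, n = 4), CA (15.6 ± 8.50, SD, n = 4), SVZ (15.2 ± 2.25, SD, n = 3) and NAc (14.3 ± 1.32, SD, n = 4), and in edgeR's quasi-likelihood test none of the 6 pairs of regions differed. The largest of these log2 differences, NAc against DG, was -0.48 (95% interval -1.18 to 0.21, edgeR FDR 0.441), and neighbours in the order differed by 0.35 or less. The 0.35 of DG over CA fell to 0.049 when saline replicate 2 of CA was left out and was 0.62 when its replicate 4 was. The interval of each pair still allows a difference of more than 1.5 times.

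Other sites of the window did differ between regions, and most of them were sites open in NAc. Between NAc and CA in saline rats, 6 of the 33 OCRs passed a log2 fold change of 1 with an edgeR FDR under 0.01, all higher in NAc (18.2%), and of all 98237 OCRs 5.77% did so in this direction. They were OCR 2, OCR 22, OCR 23, OCR 24, OCR 29 and OCR 33. Between NAc and DG the OCRs called were OCR 24, OCR 29 and OCR 33, again all higher in NAc, 9.09% of the window against 4.74% of all OCRs. With the animal as a block 5 were called between NAc and DG, the same 3 plus OCR 22, higher in NAc, and OCR 7, higher in DG, against 8.25% of all OCRs in either direction. All 6 between NAc and CA were called with the block too, against 9.33%.

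OCR 33 (chr1:44586340-44586952), 168 kb to the right of the Tiam2 OCR, had the largest difference. Its saline libraries had 7.79, 4.89, 12.3 and 11.4 CPM in NAc and 8.65, 2.09 and 7.09 CPM in SVZ. In DG they had 0.671, 0, 1.03 and 0.366 CPM and in CA 0.138, 0.656, 0.872 and 0.230 CPM. The lowest NAc library was thus above the highest hippocampal library, and so was the lowest SVZ library. The count of 0 in saline replicate 2 of DG allows up to 0.274 CPM, which covers counting error only. The log2 fold change of OCR 33 was 4.15 ± 0.68 (SE) for NAc over DG (edgeR FDR 0.000742) and 4.27 ± 0.66 (SE) for NAc over CA (edgeR FDR 0.000402). OCR 33 was also lower in CA than in SVZ, by 3.65 on the log2 scale (edgeR FDR 0.00365), and lower in DG than in SVZ, with a log2 fold change of -3.53 (edgeR FDR 0.00633). Since regions share animals, the animal was also fitted as a block, and both of these calls were then lost (log2 fold changes -3.49 and -3.47, edgeR FDR 0.0111 and 0.0120), while OCR 33 was still called between NAc and both hippocampal regions.

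OCR 24 (chr1:44412835-44413303) lies 5.80 kb to the left of the Tiam2 OCR and was likewise higher in NAc and SVZ than in hippocampus. Its saline libraries had 10.0, 3.67, 6.89 and 9.48 CPM in NAc and 2.95, 2.43 and 7.33 CPM in SVZ. All 8 hippocampal saline libraries had between 0.394 and 1.82 CPM, below each NAc and SVZ library. Its log2 fold change was 2.99 ± 0.51 (SE) for NAc over DG (edgeR FDR 0.000964) and 2.97 ± 0.50 (SE) for NAc over CA (edgeR FDR 0.000677). The Tiam2 OCR, with OCR 25 between it and OCR 24, was not called between any regions, and the difference between the 2 OCRs was not tested.

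OCR 29 (chr1:44457890-44458558), between the Tiam2 OCR and OCR 30, was a weak site in all regions. Its saline means were 3.70 ± 1.09 CPM for NAc, 0.946 ± 0.364 for DG and 0.730 ± 0.262 for CA (SD, n = 4 each) and 2.86 ± 1.15 CPM for SVZ (SD, n = 3). Its call between NAc and DG (log2 fold change 1.96 ± 0.46, SE, edgeR FDR 0.00840) was the least firm of the 3, and it was lost with another normalization and when any of the 4 NAc or 4 DG saline libraries was left out (log2 fold change 1.78 to 2.23), or saline replicate 1 or 2 of SVZ. OCR 22 (chr1:44402152-44402595) and OCR 23 (chr1:44406074-44406371), on the left of OCR 24, were higher in NAc than in CA by a log2 fold change of 2.24 ± 0.46 (SE, edgeR FDR 0.00324) and of 2.79 ± 0.57 (SE, edgeR FDR 0.00308). OCR 2 (chr1:44180728-44181229), 238 kb to the left of the Tiam2 OCR, had a log2 fold change of 1.94 ± 0.37 (SE, edgeR FDR 0.00181) for NAc over CA. OCR 22 to OCR 24 form a run of 3 neighbours within 17 kb to the left of the Tiam2 OCR, all called between NAc and CA, and OCR 25, between this run and the Tiam2 OCR, was not called there. The number of calls between NAc and CA was 3 without saline replicate 4 of NAc and 3 without saline replicate 1 of CA, and in the 2 library batches taken alone it was 0 and 3, the 3 being OCR 24, OCR 33 and OCR 7, which was lower in NAc. The log2 fold changes of the 6 OCRs were 1.87 or more in each batch. The batches are inferred from the spelling of peak names, and the shares of all OCRs in these fits are not given here.

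Fewer calls were made against SVZ. Between CA and SVZ, OCR 22 and OCR 33 were called, both lower in CA, against 2.42% of all OCRs in this direction, and between DG and SVZ only OCR 33 was called, against 1.67% of all OCRs. With the animal as a block the counts were 1, OCR 22 (2.36% of all OCRs), and 0 (1.77%). The CA and SVZ count was 0 without saline replicate 1 of CA or saline replicate 1 or 3 of SVZ, and 1 without saline replicate 3 or 4 of NAc. The DG and SVZ call was lost when any of 8 libraries was left out, among them saline replicates 1, 2 and 4 of DG and saline replicates 1 and 3 of SVZ. Between NAc and SVZ edgeR called 0 of the 33 OCRs and 0 of all OCRs, with 2 window OCRs lower in NAc at an unadjusted p under 0.05 (2.4% of all OCRs), and DESeq2 called 0. Between DG and CA edgeR called 0 as well, with 1 higher in DG at an unadjusted p under 0.05 (0.783% of all OCRs), and DESeq2 called 0.

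Set against the mean of the other 3 regions, OCR 24, OCR 29 and OCR 33 passed in NAc (log2 fold changes 2.27, 1.55 and 3.02), against 4.66% of all OCRs, and none of the 33 passed in DG (0.155% of all OCRs), CA (0.0814%) or SVZ (0.399%). With the animal as a block 6 passed in NAc (6.7% of all OCRs). DESeq2 called 5 for NAc (6.2%), 0 for DG (1.31%), 0 for CA (1.35%) and 1, OCR 33, for SVZ (1.53%). At an unadjusted edgeR p under 0.05, 4 window OCRs were higher in DG (9.87% of all OCRs), 3 were in CA (8.51%) and SVZ had 7 (9.74%). The highest in DG was OCR 7 (chr1:44257703-44258592), with a log2 fold change of 1.11 ± 0.35 (SE, edgeR FDR 0.0807), and the highest in CA was OCR 17 (chr1:44370792-44371302), with 1.02 ± 0.40 (SE, edgeR FDR 0.148).

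The METH libraries gave a second set of libraries for the same regional comparisons, from other animals. Between NAc and CA they called 4 OCRs, of which 2 (OCR 24 and OCR 33) were among the 6 called in saline, against 7.36% of all OCRs. Between NAc and DG they called 5, among them all 3 called in saline, against 4.17% of all OCRs. METH replicate 3 of NAc lay in the hippocampal range at these sites: its values were 0.462 CPM at OCR 33, 0.923 CPM at OCR 24 and 1.29 CPM at OCR 22. In the other 3 METH libraries of NAc OCR 33 had 14.7, 6.46 and 20.4 CPM. Without this library and the 2 low libraries of DG, 10 OCRs were called between NAc and CA in the METH libraries, among them all 6 called in saline (OCR 33 log2 fold change 4.42, edgeR FDR 4.58e-05), against 15.9% of all OCRs. Between NAc and DG the same libraries called 6, among them OCR 24 and OCR 33 but not OCR 29, against 7.26% of all OCRs. The low libraries were picked for low levels over OCRs that separate NAc from hippocampus. The calls without them are thus no independent check of the saline calls.

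**Figure D3:**
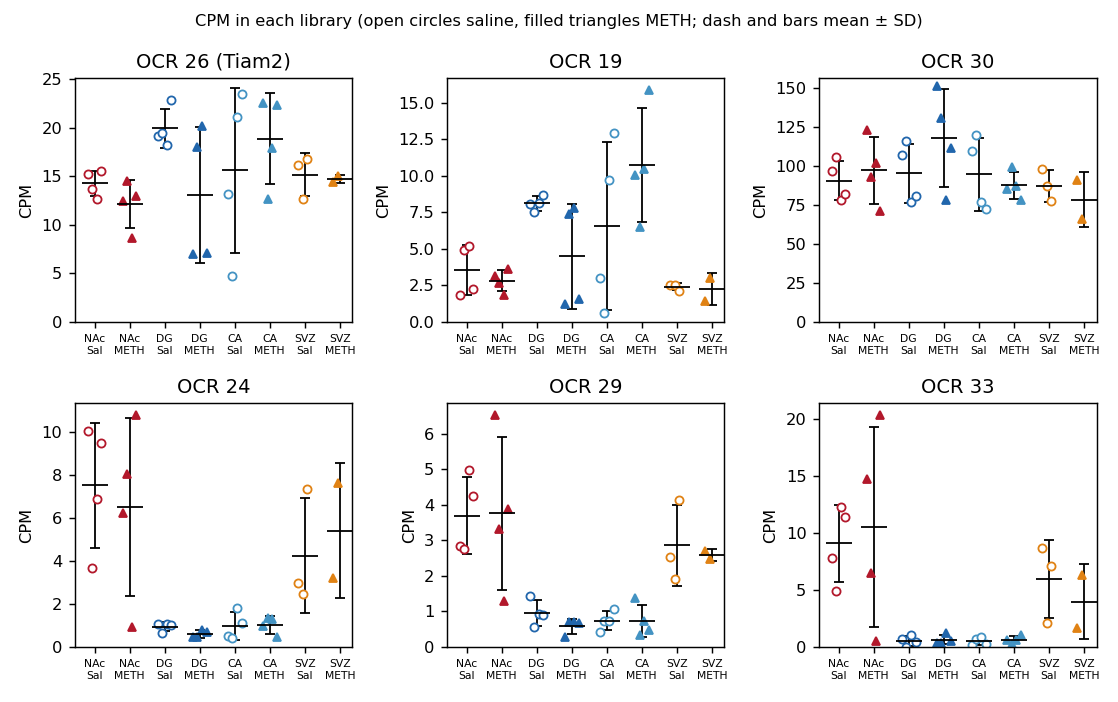
CPM in each library at 6 OCRs, by region and treatment (open circles saline, filled triangles METH, dash and bars mean ± SD, n = 4 per group, 3 for SVZ saline and 2 for SVZ METH, and within a group points run by replicate number). The upper panels show the Tiam2 OCR and OCR 30, with a peak in every library, and OCR 19, with a peak in 15 of 29, and the lower panels OCR 24, OCR 29 and OCR 33, where each hippocampal library is under 2 CPM.

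METH was then compared with saline in each region. In none of the 4 regions did a window OCR pass the threshold for a differentially accessible region (DAR), a fold change above 1.5 with an edgeR FDR under 0.001, and 0% of all OCRs passed it. DESeq2 also called 0 window OCRs in each region. At an unadjusted edgeR p under 0.05 the NAc comparison held 1 window OCR (2.45% of all OCRs), DG held 4 (9.84%), CA held 1 (0.82%) and SVZ held 2 (3.47%). The lowest edgeR FDR in the window was 0.493, in DG.

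At the OCR named at Tiam2, the study reports lower accessibility after METH in NAc and DG and higher accessibility in CA. This OCR was chosen by the study from METH comparisons of these same libraries. Its METH values below thus describe it and are not an independent test. In DG its METH libraries had 6.97, 18.0, 20.2 and 7.05 CPM, against 18.2 to 22.9 CPM in the 4 saline libraries. Replicates 1 and 4 were far below the saline range, replicate 3 lay inside it and replicate 2 just under it. The log2 fold change in DG was -0.61 (95% interval -1.32 to 0.10, edgeR FDR 0.495), with -0.63 within batch 1 and -0.59 within batch 2. Replicates 1 and 4 are the 2 DG libraries that were low over the hippocampus-high OCRs elsewhere, and without the 4 low libraries the log2 fold change was -0.06 ± 0.25 (SE). That fit keeps 2 METH libraries of DG. The low libraries were picked by a signal that moves with OCR 26 itself (r = 0.91 over the 16 hippocampal libraries). The value is thus no independent check, and whether METH lowered that signal was not tested.

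In CA the METH libraries had 22.6, 12.7, 17.9 and 22.4 CPM at the Tiam2 OCR, all within the range of the saline libraries (4.73 to 23.5 CPM). The log2 fold change in CA was 0.27 (95% interval -0.43 to 0.98, edgeR FDR 1.00). Without saline replicate 2 of CA it was -0.03. Within batch 1 the CA value was 0.98 and within batch 2 it was -0.15. In NAc the METH libraries had 12.5, 14.5, 8.59 and 12.98 CPM, overlapping saline, with the lowest value in replicate 3. The log2 fold change in NAc was -0.23 (95% interval -0.94 to 0.48, edgeR FDR 1.00), and it was -0.10 without METH replicate 3, -0.10 within batch 1 and -0.38 within batch 2. In SVZ the 2 METH libraries had 14.4 and 15.05 CPM, inside the saline range, with a log2 fold change of -0.04 (95% interval -0.96 to 0.88, edgeR FDR 1.00). METH replicate 2 of SVZ carries an extra tag in the names of its peaks of unknown meaning, and without this library the value was -0.07.

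The METH change in DG minus that in CA, fitted as an interaction, was -0.88 on the log2 scale for the Tiam2 OCR (95% interval -1.89 to 0.12, edgeR FDR 0.547). In edgeR and in DESeq2 0 window OCRs passed, against 0% of all OCRs in each. DG and CA libraries come from the same animals, and the interaction fit had no animal term, so its interval and p ignore this pairing. At an unadjusted edgeR p under 0.05 the interaction held 4 window OCRs on the lower side (OCR 1, OCR 2, OCR 21 and OCR 28) and 1 on the higher side (OCR 9), against 4.53% and 3.95% of all OCRs. Without the 4 low libraries the interaction of the Tiam2 OCR was -0.04 ± 0.33 (SE). The limit given above for that fit holds here too, and the part of these libraries in the difference was not tested.

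The study normalised its counts with RUVr, which estimates hidden factors from the residuals about the group means, so the spread between libraries of a group is what the factors take out. With 5 such factors as covariates edgeR called 3 window OCRs in DG, against 4.64% of all OCRs. They were OCR 1, OCR 2 and OCR 26 (log2 fold change -0.72, FDR 0.000935). In the interaction it called 5, OCR 26 among them (-1.10, FDR 0.000412), against 4.23%. It called 0 in NAc (0.0122% of all OCRs), 0 in CA (0%) and 0 in SVZ (0.198%). Counts corrected by 10 factors were tested with edgeR's likelihood-ratio test instead, in a fit that did not count the factors among its coefficients. Its calls thus differ from those with 5 factors by more than the number of factors. It called 8 window OCRs in DG, OCR 26 among them, against 20.6% of all OCRs. In the interaction it called 11, OCR 26 again among them (-1.01, FDR 1.16e-11), against 22.7%. The other regions then had 3 calls in NAc (5% of all OCRs), 2 in CA (1.42%) and 2 in SVZ (6.84%), none of them OCR 26. The log2 fold change of OCR 26 moved little, from -0.61 to -0.72 and -0.65 in DG, while the call changed.

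**Figure D4:**
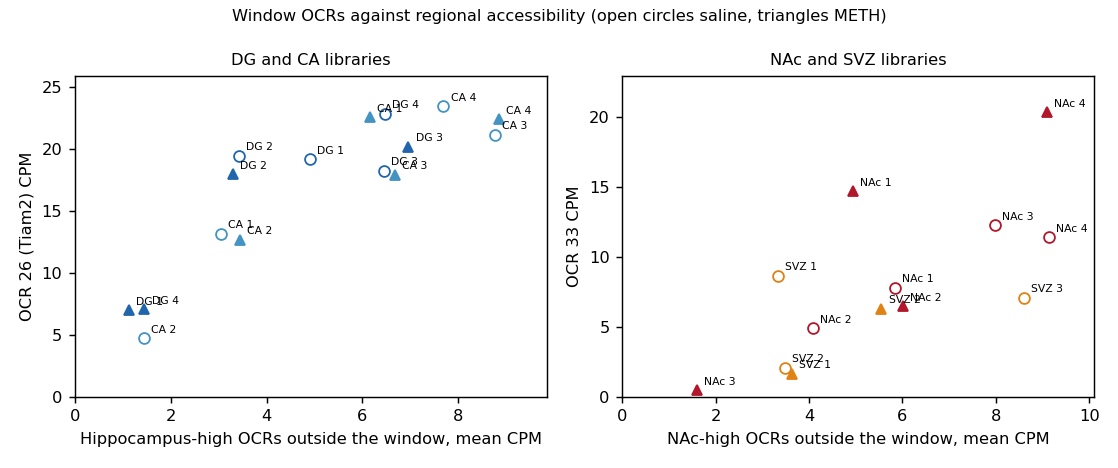
Left, CPM of the Tiam2 OCR against the mean CPM of the hippocampus-high OCRs outside the window in the 16 DG and CA libraries. Right, CPM of OCR 33 against the mean CPM of the NAc-high OCRs in the 13 NAc and SVZ libraries (open circles saline, triangles METH, numbers are replicates); METH replicates 1 and 4 of DG, saline replicate 2 of CA and METH replicate 3 of NAc lie at the lower left.

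Across libraries the level of the Tiam2 OCR was also set against that of each other window OCR. Over the 29 libraries the Pearson correlation of log2 CPM with OCR 26 was highest for OCR 19 (r = 0.82, chr1:44389690-44390477), OCR 5 (r = 0.78, chr1:44245393-44246487) and OCR 1 (r = 0.76, chr1:44168870-44169236). It was lowest for OCR 30 (r = -0.54), and others lay near 0, such as OCR 3 (r = 0.13) and OCR 33 (r = -0.03). The 3 highest were picked for their correlation, and values for single OCRs outside the window are not given. Over the 25 libraries without the 4 low ones r was 0.72 for OCR 19, 0.86 for OCR 5, 0.65 for OCR 1 and -0.25 for OCR 30. After each group's mean was taken off, the correlations were 0.88 for OCR 19, 0.87 for OCR 5, 0.70 for OCR 1 and -0.55 for OCR 30. These libraries share animals, and the values within a library share its depth and quality, so the correlations describe the set and carry no p. Over the 16 hippocampal libraries the log2 CPM of OCR 26 had r = 0.91 with that of the hippocampus-high OCRs outside the window, OCR 19 had r = 0.92, OCR 5 had r = 0.98 and OCR 30 had r = -0.89. Without the 3 low libraries (n = 13) these were 0.74, 0.78, 0.95 and -0.91. Over the 8 NAc libraries OCR 33 had r = 0.92 and OCR 24 had r = 0.95 with the NAc-high OCRs, and without the low library (n = 7) 0.66 and 0.77.

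OCR 19, picked for its high correlation, had the following values in single libraries. In DG its saline libraries had 8.10, 7.49, 8.14 and 8.72 CPM and its METH libraries 1.20, 7.40, 7.78 and 1.52 CPM. In CA its saline libraries had 2.98, 0.591, 9.73 and 12.9 CPM and its METH libraries 10.1, 6.499, 10.5 and 15.9 CPM. The lowest values are those of the 3 low hippocampal libraries, as at the Tiam2 OCR. The log2 fold change of OCR 19 was -0.86 ± 0.58 (SE) in DG and 0.71 ± 0.57 (SE) in CA, and neither passed. Without the low libraries it was -0.10 in DG and 0.33 in CA, and without saline replicate 4 of CA it was 1.28 there.

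In DG 24 of the 33 window OCRs had a log2 fold change below 0, with a median of -0.44, against 60.1% and -0.15 over all OCRs. The 4 at an unadjusted p under 0.05 were OCR 1, OCR 2, OCR 23 and OCR 28, all lower with METH. OCR 1, at the left end of the window, had 3.34, 2.65, 3.09 and 3.44 CPM with saline and 1.03, 1.63, 1.18 and 0.286 CPM with METH. The groups do not overlap, and the log2 fold change was -1.58 ± 0.51 (SE, edgeR FDR 0.493). OCR 2 had 3.72, 5.12, 3.71 and 5.42 CPM with saline and 1.12, 2.495, 1.87 and 0.476 CPM with METH, again with no overlap, and a log2 fold change of -1.58 ± 0.52 (SE, edgeR FDR 0.493).

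Window OCRs with all 4 METH libraries of DG below all 4 saline libraries were OCR 1, OCR 2, OCR 18 and OCR 28, against 2.01% of all OCRs, and none was above, against 0.524%. Without the 4 low libraries the log2 fold changes were -1.14 ± 0.49 (SE) for OCR 1 and -1.04 ± 0.44 (SE) for OCR 2. Both had an edgeR FDR of 0.999979, and the window median was -0.06. That fit keeps 2 METH libraries of DG, and the limit given above for it holds here too. The most positive values in DG were 0.59 ± 0.32 (SE) for OCR 9 (chr1:44284896-44285404) and 0.57 ± 0.32 (SE) for OCR 13 (chr1:44349836-44350718).

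In CA 10 of 33 OCRs had a log2 fold change below 0 and 23 above it, with a median of 0.25, against 46.6% below 0 and 0.02 over all OCRs. Without the 4 low libraries the median was 0.07. The highest were OCR 22 (log2 fold change 1.17 ± 0.48, SE, edgeR FDR 1.00, and 0.89 without the low libraries) and OCR 19, and the lowest were OCR 9 (-0.44 ± 0.31, SE) and OCR 17 (-0.21 ± 0.45, SE). OCR 22, one of the NAc-high sites, had 0.692, 0.328, 0.944 and 1.79 CPM in CA saline and 2.52, 1.77, 2.11 and 2.24 CPM in CA METH. Saline replicate 4 reached just above METH replicate 2, so the groups overlap by that pair. No window OCR of CA had groups apart, against 0.484% of all OCRs higher and 0.363% lower.

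In NAc 13 of 33 OCRs had a log2 fold change below 0, with a median of 0.14, against 50.7% and -0.01 over all OCRs, and without the low library of NAc the window median was 0.22. OCR 4 (chr1:44195073-44195892) was highest, at 0.79 ± 0.30 (SE, edgeR FDR 1.00), followed by OCR 12 (chr1:44341746-44342258) at 0.57 ± 0.36 (SE). OCR 25, next to the Tiam2 OCR, was lowest at -1.07 ± 0.61 (SE), and it was the one OCR of NAc with all METH libraries (1.11, 2.22, 1.02 and 2.41 CPM) below all saline libraries (2.53, 2.65, 5.39 and 3.62 CPM), against 1.91% of all OCRs lower and 1.04% higher. OCR 6 (chr1:44252623-44253196) followed at -0.87 ± 0.55 (SE). At the NAc-high OCR 33 the METH libraries bracketed the saline libraries on both sides, from 0.462 to 20.4 CPM.

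In SVZ 17 of 33 OCRs had a log2 fold change below 0, with a median of -0.02, against 50.5% and -0.01 over all OCRs. OCR 12 had 4.22, 3.04 and 3.54 CPM with saline and 5.39 and 10.6 CPM with METH (log2 fold change 1.15 ± 0.45, SE, edgeR FDR 1.00). Without METH replicate 2, the library with the extra tag and the 10.6 CPM, this value was 0.58. OCR 9 had 2.95, 2.17 and 3.31 CPM with saline and 5.30 and 5.77 CPM with METH (log2 fold change 0.98 ± 0.41, SE, edgeR FDR 1.00). The lowest were OCR 6 (-0.85 ± 0.74, SE) and OCR 2 (-0.76 ± 0.64, SE). With 3 libraries against 2, groups lie apart often: 10.6% of all OCRs were higher and 9.62% lower in this way, and in the window 4 were higher (OCR 3, OCR 9, OCR 12 and OCR 17) and 1 lower (OCR 1).

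**Figure D5:**
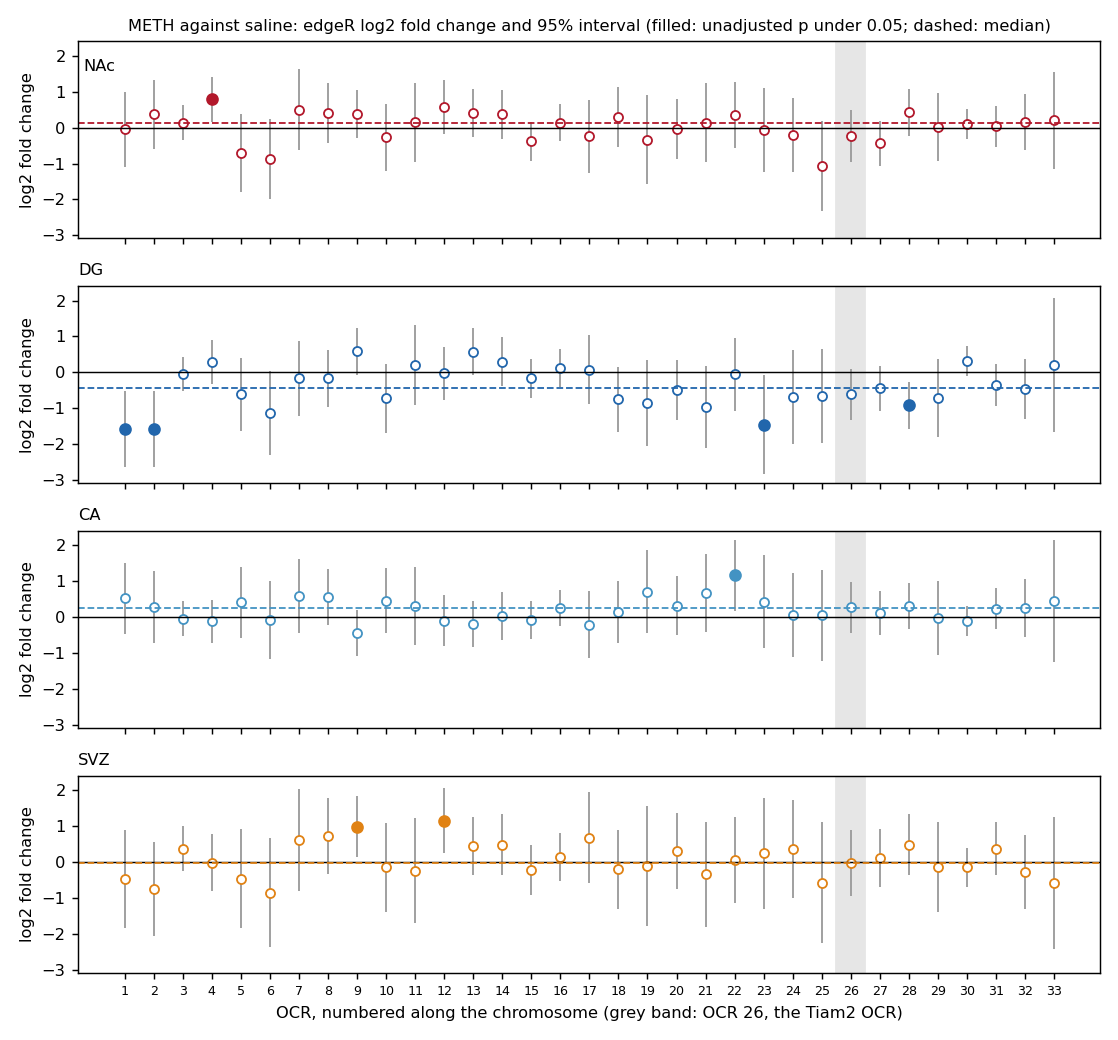
Log2 fold change of METH against saline from edgeR (points) with 95% intervals (bars) for the 33 OCRs in each region, filled at an unadjusted p under 0.05, with the window median as a dashed line and OCR 26 in the grey band. In DG 24 points lie below 0 and in CA 23 lie above it, the interval of OCR 26 spans 0 in all 4 regions, and no OCR is a DAR.

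Summed over its OCRs, no difference in the accessibility of the window passed the test in any region. For NAc the total was 244 ± 12.2 CPM in saline and 254 ± 33.8 CPM in METH libraries (SD, n = 4 each, two-sided exact permutation p = 0.543), with differences of opposite sign in the 2 batches (39.5 and -19.6 CPM). For DG the totals were 239 ± 7.003 and 232 ± 19.3 CPM (SD, n = 4 each, exact permutation p = 0.686). For CA they were 223 ± 26.3 and 239 ± 21.2 CPM (SD, n = 4 each, exact permutation p = 0.371), and for SVZ 238 ± 23.2 (SD, n = 3) and 241 ± 7.29 CPM (SD, n = 2, exact permutation p = 0.8). Adjusted over these 4 tests, all were at 0.8. OCR 30 alone had a mean of 94.7 CPM, so the share of the window's counts in OCR 26 was compared as well.

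In DG the share in OCR 26 was 8.33% ± 0.918 for saline and 5.52% ± 2.71 for METH (SD, n = 4 each, exact permutation p = 0.143, adjusted 0.286), and 5.86% ± 0.682 and 4.76% ± 0.676 in NAc (SD, n = 4 each, exact permutation p = 0.0857, adjusted 0.286). In CA it was 6.76% ± 3.20 and 7.82% ± 1.37 (SD, n = 4 each, exact permutation p = 0.714, adjusted 0.9), and in SVZ 6.36% ± 0.677 and 6.11% ± 0.359 (SD, n = 3 and n = 2, exact permutation p = 0.9, adjusted 0.9). Without the low libraries the DG shares were 8.33% ± 0.918 (SD, n = 4) and 7.82% ± 0.821 (SD, n = 2), the NAc METH share was 4.97% ± 0.651 (SD, n = 3) and the CA saline share was 8.21% ± 1.64 (SD, n = 3), above the 7.82% of CA METH. The smallest p possible is 0.0286 with 4 against 4 libraries and 0.1 with 3 against 2, so a difference in SVZ could not have passed. After the adjustment over the 4 regions, a value under 0.05 needed groups fully apart in NAc, DG and CA at once. These tests of totals and shares thus cannot show that a region did not change.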

How the data were processed

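ATAC-seq libraries were compared by region and treatment as given in the sample titles. The authors ran the AIAP pipeline with default parameters and merged the OCRs of all groups with mergeBed; the deposited table holds raw counts per OCR. They also deposited peak lists per library, with the ratio (fold enrichment) and the −log10 p and q of each peak. How cut sites were shifted and which program counted reads are not given in the sources used here.

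Counts were tested with edgeR 4.0.16 in R 4.3.3 (upper-quartile normalization, filterByExpr, which kept 98237 of 98237 OCRs, robust quasi-likelihood F test, Benjamini-Hochberg over all OCRs). METH contrasts came from 1 fit of the 29 libraries and region contrasts from the 15 saline libraries. DESeq2 1.42.0 and the fits named below were alternatives. RUVr factors were rebuilt from the published formula with residuals and log counts centred per OCR. Counts corrected by 10 RUVr factors were tested with edgeR's likelihood-ratio test in place of the quasi-likelihood test. The scripts were tested on simulated counts. Library batch and animal were inferred from the peak names. Batch stands for 2 spellings of a name prefix that differ only in letter case, and no sample label calls them batches. Batch 1 holds saline replicate 1 of SVZ and, in the other regions, replicates 1 and 2. Within a treatment, libraries of equal replicate number share an animal, except that in SVZ this holds for saline replicate 1 alone, so the block was the animal; deviations of libraries of 1 animal correlated with r from -0.43 to 0.66 over 39 pairs. The highest Spearman correlation of the counts of 2 libraries was 0.946, and no library was a copy of another.

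OCRs named are the Tiam2 OCR, its neighbours, the 3 highest by CPM, the 2 most positive and 2 most negative METH changes and the largest regional excess in each region, the widest, the narrowest and the 3 that correlate best with OCR 26. Others, among them OCR 18, OCR 21, OCR 23, OCR 24, OCR 28 and OCR 29, were named after their values were seen. The window, the members and this rule were chosen with earlier results of these data known. An rn6 genome and annotation were not used here, so no sequences are given.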

Additional observations from a re-analysis of the deposited data

Results flagged for a closer look

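Among 114 group values examined, 3 had 1 library far from the rest of its group, and chance alone gives about 1 in 20. OCR 25 had 3.63 CPM in saline replicate 4 of CA, OCR 33 had 1.18 CPM in METH replicate 3 of DG, and the window total was 249.8 CPM in saline replicate 1 of DG.

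Peaks were also called at places of the window that no OCR of the count table covers. They lay at chr1:44343844-44344169 in 15 libraries (8 METH and 7 saline), at chr1:44480036-44480366 in 15 (10 and 5), at chr1:44609712-44610208 in 12 (5 and 7) and at chr1:44327376-44327671 in 9 (7 and 2, the latter both CA), and the difference between treatments was not tested. Of 706 peaks called in the window over the 29 libraries, 169 (23.9%) lay outside its OCRs, at 56 places, of which 26 had a peak in 1 library.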

How the results depend on the processing

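No DAR was called in the window under any alternative other than RUVr, the factor correction the study names, whose number of factors was rebuilt here. With 5 RUVr factors edgeR called 3 window OCRs in DG and 5 in the interaction. The Tiam2 OCR was called in DG (-0.72) and in the interaction (-1.10). On counts corrected by 10 factors edgeR called 3 in NAc, 8 in DG, 2 in CA, 2 in SVZ and 11 in the interaction. Again the Tiam2 OCR was called in DG (-0.65) and in the interaction (-1.01). For the Tiam2 OCR the CA value turned to -0.15 in batch 2 and to -0.028 without the 4 low libraries, which were chosen after seeing the data, as were the batch fits of the saline comparisons, and the SVZ value turned to 0.036 with the replicate block.

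With the replicate number as a block the saline calls were 4 for CA against SVZ (3.74% of all OCRs) and 3 for DG against SVZ (2.89%). They were 5 for NAc against DG (8.12%) and 5 for NAc against the other regions (5.75%). In the same order, the animal as a block gave 1, 0, 5 and 6 (2.36%, 1.77%, 8.25% and 6.7%). DESeq2 gave 5, 3, 7 and 5 (7.21%, 6.75%, 11.6% and 6.2%), and 1 for SVZ against the others (1.53%). TMM gave 1 for CA against SVZ (1.81%), and a batch covariate gave 4 there and 5 for NAc against the others. Batch 1 alone gave 0 for each of CA and DG against SVZ, NAc against CA, DG and the others. Batch 2 alone gave 0 for DG against SVZ and 3 for NAc against CA. Shares of all OCRs are not given for the batch fits or for any fit with 1 library left out. Their counts are thus not read as results about these OCRs. The METH libraries gave 0 for CA (1.38%) and for DG (0.51%) against SVZ, 5 for NAc against DG (4.17%) and 1 for CA against the others (1.19%). Without their 3 low libraries they gave 0 for DG against SVZ (0.503%), 10 for NAc against CA (15.9%) and 6 for NAc against DG (7.26%). Against the others these libraries gave 7 for NAc (6.13%) and 2 for CA (3.06%). The window total with TMM differed by 1.12 CPM in DG and -1.20 in SVZ, and in NAc by 39.5 in batch 1 and -19.6 in batch 2.

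Leaving out 1 library at a time gave 0 to 3 calls for CA against SVZ, 0 to 1 for DG against SVZ, 3 to 7 for NAc against CA, 2 to 4 for NAc against DG and 2 to 7 for NAc against the others, where saline replicate 4 of CA left out gave 7 and replicate 3 of SVZ 5. It gave totals from -1.64 to 25.4 in NAc, -13.0 to 1.75 in DG, 7.07 to 26.9 in CA and -7.66 to 15.4 in SVZ. Shares ran from -3.78 to -1.96 in DG, -0.385 to 1.87 in CA and -0.521 to 0.129 in SVZ. METH values of the Tiam2 OCR ran from -0.90 to -0.40 in DG, -0.028 to 0.54 in CA and -0.16 to 0.038 in SVZ, and its saline values from -0.22 to 0.35 for CA against SVZ, 0.049 to 0.62 for DG against CA and -0.44 to 0.13 for NAc against CA. OCR 12 in SVZ ran from 0.58 to 1.56, OCR 19 in CA from 0.33 to 1.28, OCR 2 in SVZ from -1.13 to -0.34, and OCR 17 in CA ran from -0.61 to 0.26 and OCR 6 in SVZ from -1.34 to 0.44.

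Saline differences of the Tiam2 OCR also changed sign: CA against SVZ was -0.85 in batch 1 and -0.17 with the replicate block, DG against CA -0.12 in batch 2 and -0.54 in METH libraries, DG against SVZ -0.18 in METH libraries, NAc against CA 0.69 in batch 1 and NAc against SVZ 0.064 with the animal block. OCR 9 in DG was -0.086 in batch 2 and OCR 17 in CA 0.27 in batch 1. The cause was not tested. METH in SVZ could not be fitted within batch 1. At 0 to 20 counts a site, as in weak OCRs, small differences are not detectable at this depth.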
